A study of Mus musculus with 8 samples.

Results

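Inflammasome and pyroptosis genes were followed in mouse peritoneal macrophages on arrays that carried RNA of macrophages labelled Furin KO and WT side by side. The set holds 9 genes, Nlrp3, Nlrc4, Naip2, Naip5, Mefv, Pycard, Casp1, Casp4 and Gsdmd, of 36947 genes and transcripts tested. A gene was found through the RefSeq accession of its probes, and where it had several, the brightest over all arrays stood for it. All 9 were found, with 12 probes in all, and all passed the floor on dim genes (a mean log2 intensity of at least 6). Their probes were well above background in all 16 channels, and no spot of theirs was saturated.

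The KO macrophages came from LysMCre-fur fl/fl mice and the WT macrophages from littermates, all on the C57BL/6 background. FURIN is a protease that cuts precursor proteins into their active forms. LysMCre drives Cre from the Lyz2 locus, so the floxed Furin gene is deleted in myeloid cells and other cells in the culture keep it. Cells washed from the peritoneal cavity were cultured, freed of floating cells and left unstimulated (0 h) or given LPS at 1 μg/ml for 1, 4 or 24 h. Each of the 4 time points had 2 arrays, named replicates 1 and 2, and each array compared KO with WT RNA of that time point. KO RNA was in the Cy5 channel for replicate 1 and in the Cy3 channel for replicate 2, so replicate and dye orientation are 1 factor. The submitters call the replicates biological, and the number of mice behind each RNA is not given in the sources used here.

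An inflammasome is a complex that forms in the cytosol when a sensor meets a sign of infection or damage. NLRP3 responds to membrane damage and ion flux, NLRC4 acts with the NAIP proteins on bacterial flagellin and secretion system parts, and pyrin, the product of Mefv, responds to certain bacterial toxins. The sensors recruit caspase-1, most of them through the adaptor ASC (Pycard). Caspase-1 matures IL-1β and IL-18, and caspase-1 and caspase-11 (Casp4 in the mouse) cut gasdermin D (Gsdmd), which then opens pores in the plasma membrane. Macrophages are the cells in which LPS is best known to prime this machinery by raising the RNA of some of its parts.

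Genes of the set lie close to each other in 2 places. Casp1 and Casp4 are neighbouring protein-coding genes on chromosome 9, and Naip2 and Naip5 are neighbours on chromosome 13. The promoter windows of Casp4, Nlrp3 and Mefv are shown because LPS raised these genes most. Of the Naip2 and Naip5 windows a shared stretch is shown further below, because the genes are close relatives. All windows come from RefSeq (GRCm38.p6), cover the 250 bases before the start and read 5′ to 3′ on the strand of the gene. Capitals mark matches to the NF-kB consensus on either strand, which 7.25% of all 32851 windows of this length hold. The Casp4 window lies at chr9:5308599-5308848 on the plus strand, the Nlrp3 window at chr11:59541319-59541568 on the plus strand and the Mefv window at chr16:3718125-3718374 on the minus strand.
Casp4: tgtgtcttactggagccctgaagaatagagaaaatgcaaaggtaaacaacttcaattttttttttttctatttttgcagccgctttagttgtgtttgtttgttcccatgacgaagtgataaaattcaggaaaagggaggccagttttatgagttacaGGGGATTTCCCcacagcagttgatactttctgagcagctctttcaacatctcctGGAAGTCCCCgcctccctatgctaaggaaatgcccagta
Nlrp3: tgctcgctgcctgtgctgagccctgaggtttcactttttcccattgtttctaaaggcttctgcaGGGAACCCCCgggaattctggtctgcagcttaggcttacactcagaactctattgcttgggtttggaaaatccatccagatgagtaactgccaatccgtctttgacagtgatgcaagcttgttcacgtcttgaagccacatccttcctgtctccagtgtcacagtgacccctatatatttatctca
Mefv: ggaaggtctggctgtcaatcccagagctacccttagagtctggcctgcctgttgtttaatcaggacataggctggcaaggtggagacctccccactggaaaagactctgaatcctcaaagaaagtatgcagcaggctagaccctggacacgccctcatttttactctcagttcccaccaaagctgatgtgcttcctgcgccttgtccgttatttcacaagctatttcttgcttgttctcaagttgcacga
The Casp4 window held 3 matches, at -93, -92 and -39 from the start, the first and second of which overlap. The Nlrp3 window held 1, at -186, and the window of its other listed start held none. No match lay in the windows of Mefv, Casp1, Pycard, Naip2 or Nlrc4, and Naip5 had 1, at -218. The core of the ISRE, the element read by interferon-induced factors (GAAA, any 2 bases, GAAA, found in 2.98% of windows), the GAS element (TTCNNNGAA, 7.02%) and the AP-1 site (TGANTCA, 6.75%) were searched on both strands as well and had no match in any of these windows. A match of letters is a description of the window and not a binding site. The Gsdmd promoter was not analysed here.

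The windows of Naip2 (chr13:100202123-100202372, minus strand) and Naip5 (chr13:100247337-100247586, minus strand) share a stretch of 83 bases, in which 77 (92.8%) are the same. In this pair, capitals mark the 6 bases at which they differ.
Naip2: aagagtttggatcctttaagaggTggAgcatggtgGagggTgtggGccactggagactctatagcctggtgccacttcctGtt
Naip5: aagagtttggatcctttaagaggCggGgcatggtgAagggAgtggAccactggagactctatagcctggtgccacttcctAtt
The stretch begins 85 bases before the Naip2 start and 92 bases before the Naip5 start. The genes are paralogs, and how far each array probe tells their transcripts apart was not tested.

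The targeted gene and the driver of Cre served as a check of the labels. Furin was lower in KO on the 6 arrays of 0, 1 and 24 h, with log2 KO/WT ratios between -0.85 and -0.55. On the 4 h arrays the ratios were 0.00023 and 0.33, so the RNA labelled KO there did not show less Furin signal. Whether the probe lies in the deleted part of Furin is not given in the sources used here. Lyz2 was lower in KO on all 8 arrays, from -1.85 to -0.74, and at -1.04 and -1.13 on the 4 h arrays. Between 43.8% and 51.3% of the gene spots were well above background in a channel. Macrophage markers fit the label, with 7 of 7 measured genes (of 8 listed) above background in all channels. Markers of other cells were present too. All 6 B cell markers and all 5 mast cell markers were above background in all channels, as were 5 of 7 T and NK cell markers (Ncr1 in no channel), 3 of 7 measured neutrophil markers (S100a8, Mmp8 and Camp, with S100a9, Ngp and Cxcr2 in no channel) and 2 of 4 dendritic cell markers (Flt3 and Zbtb46, with Xcr1 in no channel). No eosinophil marker of 4 was above background in all channels, and Epx and Prg2 were in none.

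LPS changed the RNA of 8 of the 9 genes at 4 h, with the same direction in WT and KO macrophages. Of all genes and transcripts, dim ones included, 34.8% changed in WT and 36.0% in KO. No KO/WT difference of the 9 passed its test, except that of Naip2 in the mean over the times when a term for the replicate was fitted (adjusted p = 0.0450). Nlrp3, Mefv and Casp4 rose by 1 h and stayed raised at 24 h, Casp1 and Gsdmd rose by 4 h, and Pycard and Naip2 fell. Nlrc4 rose at 1 h and lay below its unstimulated level at 4 h, and Naip5 had no called change before 24 h.

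**Figure D1:**
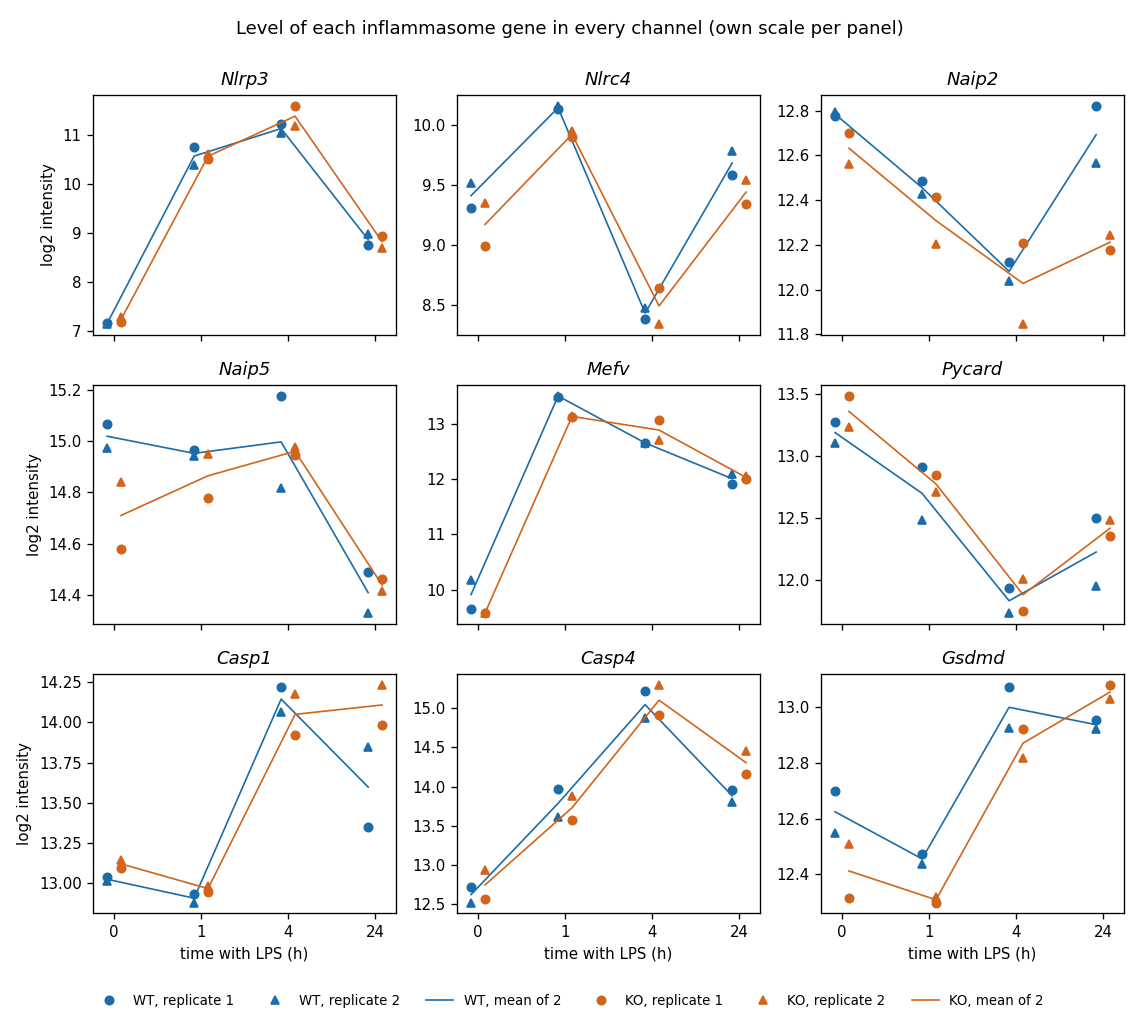
Each panel plots 1 gene, with time with LPS in hours on the x axis and the normalized log2 intensity of each channel on the y axis (own scale per panel, time points evenly spaced). Circles are replicate 1, triangles replicate 2, blue WT and orange KO, and lines join the means of 2 channels. Nlrp3 runs from 7.14 to 11.60, and its WT and KO points lie close together at every time.

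The LPS response was tested within each genotype by limma's analysis of separate channels, in which every channel counts as a sample and the correlation of both channels of a spot is taken into account. The adjusted p follows Benjamini and Hochberg over 36927 genes and transcripts, and a change was called at an adjusted p under 0.05. The responses at 1, 4 and 24 h share the unstimulated channels. At 1 h, 4 of 9 genes were called in WT and the same 4 in KO, where 8.51% and 7.54% of all genes and transcripts were called. All 4 were higher and none lower, beside 3.36% higher and 5.16% lower of all genes in WT and 3.08% and 4.45% in KO. At 4 h it was 8 of 9 in both genotypes against 34.8% and 36.0%. Of these 8, 5 were higher, beside 15.5% of all genes in WT and 16.3% in KO, and 3 lower, beside 19.2% and 19.7%. These shares include dim genes and transcripts. With an offset of 0 in the background correction, 17867 brighter ones passed the floor, and most of them were called at 4 h. In WT 5361 of these were higher and 6533 lower, and in KO 5545 and 6692. At 24 h 7 of 9 were called in each genotype against 30.4% and 28.7%, and 6 of them in both. In each genotype 5 were higher, beside 13.5% of all genes in WT and 12.8% in KO, and 2 lower, beside 16.9% and 15.9%. In cultures such as these, a fall in RNA per cell and a loss of cells that hold the RNA cannot be told apart. The summed level of the macrophage markers fell with LPS, from 18.10 to 18.29 (log2) in unstimulated channels to 16.62 to 17.17 at 4 h and 16.68 to 17.01 at 24 h, and its part in the changes below was not tested. Each sum adds unlogged intensities, so its brightest genes weigh most. The B cell sum was 14.77 to 15.41 at 4 h, against 15.99 to 16.69 unstimulated. The sum of the 7 measured neutrophil markers was 14.57 to 16.03 at 24 h, against 12.77 to 12.99 unstimulated. Among these 7, S100a9, Ngp and Cxcr2 were above background in no channel and Ltf in 1 of 16. At 24 h the mast cell sum was 10.69 to 11.79, against 12.93 to 13.80 unstimulated, and the dendritic cell sum was 9.42 to 9.52, against 11.65 to 12.70. The sum of mesothelial and fibroblast markers was 10.90 to 11.33 at 24 h, against 9.57 to 9.85 unstimulated. Of its 7 genes only Dcn was above background in all 16 channels, so this sum lay partly at background. The part of these other cells was not tested either.

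Nlrp3 had unstimulated log2 intensities of 7.15 and 7.14 in WT (replicates 1 and 2) and 7.18 and 7.27 in KO. In WT it read 10.76 and 10.39 at 1 h, 11.23 and 11.04 at 4 h, then 8.75 and 8.97 at 24 h. In KO it read 10.52 and 10.62, 11.60 and 11.18, and 8.94 and 8.70 at these times. Every stimulated channel lay above every unstimulated channel, and the 4 h channels were the highest. The rise was 3.43 (standard error 0.15) on the log2 scale at 1 h in WT and 3.34 (0.15) in KO, about 10.8-fold and 10.2-fold. At 4 h it was 15.9-fold in WT (log2 3.99, adjusted p = 2.25e-10) and 17.9-fold in the RNA labelled KO (4.16, adjusted p = 1.79e-10). Between 4 and 24 h it fell by 2.28 in WT and fell by 2.57 in KO, to levels 3.29-fold and 3.02-fold above the start. The second Nlrp3 probe, which was dimmer, rose by 3.45 in WT and 3.82 in KO at 4 h. Over all other processing settings and with 1 array left out, the 4 h rise of Nlrp3 ran from 3.64 to 4.95 in WT. In KO it ran from 3.85 to 5.06. Leaving out arrays alone gave 3.90 to 4.09 in WT and 3.96 to 4.37 in KO, so the fold depends on the processing.

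Mefv, the gene of pyrin, was highest at 1 h, earlier than Nlrp3. Its unstimulated levels were 9.64 and 10.18 in WT and 9.58 and 9.58 in KO. At 1 h they were 13.49 and 13.51 in WT and 13.12 and 13.14 in KO, and both groups had their highest mean at this time. The levels at 4 h were 12.65 and 12.64 in WT and 13.06 and 12.70 in KO, and those at 24 h were 11.91 and 12.09 in WT and 12.002 and 12.05 in KO. No stimulated channel overlapped with the unstimulated ones. The rise at 1 h was 12-fold in WT (log2 3.58, standard error 0.15) and 11.7-fold in KO (3.55, 0.15), and at 24 h it was still 4.26-fold and 5.45-fold (adjusted p = 1.51e-07 and 3.55e-08). The second Mefv probe, which was dimmer, gave smaller rises at 1 h, 2.88 in WT and 2.85 in KO on the log2 scale. Of all pairs in the set, Mefv and Nlrp3 had the closest profiles, with Pearson's r of 0.92 over the 16 channels, given as a description since these channels share arrays and time points.

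Nlrc4 moved in both directions. Its WT channels read 9.30 and 9.52 unstimulated, 10.13 and 10.16 at 1 h, 8.38 and 8.47 at 4 h, then 9.58 and 9.79 at 24 h. The KO channels read 8.99 and 9.35, 9.90 and 9.95, 8.64 and 8.34, and 9.34 and 9.54. The 1 h channels were above and the 4 h channels below the unstimulated ones in each genotype, while at 24 h the KO channels overlapped with them. The change at 1 h was 0.73 in WT (adjusted p = 0.00351) and 0.75 in KO (adjusted p = 0.00355), and at 4 h it was -0.98 (adjusted p = 5.18e-05) and -0.68 (adjusted p = 0.00122). From 4 to 24 h Nlrc4 rose by 1.25 in WT and 0.95 in KO, which left it 0.27 above the start in both (adjusted p = 0.178 and 0.186). Without replicate 1 of the unstimulated arrays or replicate 2 of the 1 h arrays, the KO change at 1 h lost its call (adjusted p = 0.0670 and 0.0520).

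Naip2 and Naip5 encode sensors that bind the bacterial proteins for NLRC4. Naip2 read 12.78 and 12.79 in unstimulated WT and 12.12 and 12.04 at 4 h, and in KO it read 12.70 and 12.56 and then 12.21 and 11.85. The 1 h channels were below the unstimulated ones, at 12.48 and 12.43 in WT and 12.41 and 12.20 in KO, and their changes of -0.33 and -0.32 were not called (adjusted p = 0.166 and 0.181). The 4 h channels lay below the unstimulated ones, and the fall was 0.70 in WT (adjusted p = 0.000509) and 0.60 in KO (adjusted p = 0.00168). At 24 h the WT channels, 12.82 and 12.56, overlapped with the unstimulated ones, and the KO channels, 12.18 and 12.25, did not. The 24 h change was called in KO (-0.42, adjusted p = 0.0230) and not in WT (-0.09, adjusted p = 0.696), and the test of the difference between the genotypes did not call it. With loess normalization alone, and no scaling between arrays, the 24 h changes were -0.11 in KO and 0.23 in WT, neither called, and the KO call was also lost without either of the unstimulated or of the 24 h arrays (adjusted p = 0.0541 to 0.182).

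Naip5, the flagellin sensor, stood at 15.07 and 14.97 in unstimulated WT and at 14.58 and 14.84 in KO. At 1 h it read 14.96 and 14.94 in WT and 14.78 and 14.95 in KO. Its WT channels at 4 h, 15.18 and 14.82, spanned the unstimulated ones, and those of KO were 14.94 and 14.98. At 24 h they were 14.49 and 14.33 in WT and 14.46 and 14.42 in KO, below the unstimulated channels of the same genotype. The 24 h change was called in WT (-0.61, adjusted p = 0.00203) and not in KO (-0.27, adjusted p = 0.149), again with no call for the difference. With loess alone the WT change was -0.16 (adjusted p = 0.621) and the KO change 0.20.

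Pycard, the gene of the adaptor ASC, fell with LPS while the sensors Nlrp3 and Mefv rose. Its WT channels read 13.27 and 13.10 unstimulated, 12.91 and 12.48 at 1 h, 11.93 and 11.73 at 4 h, then 12.50 and 11.95 at 24 h. The KO channels read 13.49 and 13.23, 12.84 and 12.70, 11.75 and 12.01, and 12.35 and 12.48. In each genotype every stimulated channel was below both unstimulated ones. At 4 h Pycard was 2.56-fold lower in WT (log2 -1.36, standard error 0.19, adjusted p = 3.87e-05) and 2.79-fold lower in KO (-1.48, 0.19, adjusted p = 1.75e-05), and at 24 h it was 1.95-fold and 1.92-fold lower. The falls at 1 h, 0.49 and 0.59 below the start, were called only in the fit with a term for the replicate (adjusted p = 0.0308 in WT and 0.0124 in KO) and not in the fit without it (adjusted p = 0.150 and 0.0800).

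Casp1, the gene of the caspase that matures IL-1β, did not pass the test at 1 h (-0.12 in WT and -0.15 in KO, adjusted p = 0.797 and 0.694), with channels of 12.94 and 12.88 in WT and 12.95 and 12.99 in KO. The WT channels went from 13.04 and 13.01 unstimulated to 14.22 and 14.07 at 4 h, and then to 13.35 and 13.84 at 24 h. The KO channels went from 13.10 and 13.15 to 13.92 and 14.18, and then to 13.98 and 14.23. The 4 h and 24 h channels of both genotypes lay above their unstimulated ones. The rise at 4 h was 2.17-fold in WT (log2 1.12, adjusted p = 2.37e-05) and 1.90-fold in KO (0.93, adjusted p = 0.000133). At 24 h it was 1.49-fold in WT (0.57, adjusted p = 0.00725) and 1.98-fold in KO (0.99, adjusted p = 0.000113). The WT rise at 24 h was 0.33 with replicate 2 at 24 h left out (adjusted p = 0.113) and 0.56 without replicate 2 of the unstimulated arrays (adjusted p = 0.0549).

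Casp4, which encodes the caspase that senses LPS in the cytosol, rose at every time. Its WT channels read 12.73 and 12.52 unstimulated, 13.96 and 13.61 at 1 h, 15.21 and 14.87 at 4 h, then 13.96 and 13.81 at 24 h. The KO channels read 12.56 and 12.93, 13.58 and 13.88, 14.90 and 15.29, and 14.16 and 14.45. No stimulated channel overlapped with the unstimulated ones of its genotype. The 4 h rise was 5.33-fold in WT (log2 2.42, standard error 0.20, adjusted p = 2.53e-07) and 5.10-fold in the RNA labelled KO (2.35, 0.20, adjusted p = 3.38e-07). The second Casp4 probe gave 2.40 and 2.41 on the log2 scale. At 1 h the rise was 1.16 in WT and 0.98 in KO, the latter without its call when replicate 1 of the unstimulated arrays (adjusted p = 0.103) or replicate 2 of the 1 h arrays (adjusted p = 0.0746) was left out. The Casp4 promoter window with 3 matches and the Mefv window with none both belong to genes that were raised at 1 h.

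Gsdmd, the gene of the pore-forming effector, had the smallest called rise of the set. It read 12.70 and 12.55 in unstimulated WT, 13.07 and 12.93 at 4 h and 12.95 and 12.92 at 24 h. In KO it read 12.31 and 12.51, then 12.92 and 12.82, then 13.08 and 13.03. At 1 h it read 12.47 and 12.44 in WT and 12.30 and 12.32 in KO, with no call. Both later times lay above the unstimulated channels in both genotypes. The 4 h rise was 1.30-fold in WT (log2 0.37, standard error 0.10, adjusted p = 0.00865) and 1.37-fold in KO (0.46, 0.10, adjusted p = 0.00209), and the 24 h rise was 1.24-fold (0.31, adjusted p = 0.0286) and 1.56-fold (0.64, adjusted p = 0.000189). The WT calls were the less firm ones. The 4 h call in WT was lost with loess alone (0.34, adjusted p = 0.0748), and with replicate 2 at 0 h (adjusted p = 0.0765) or replicate 1 at 4 h (adjusted p = 0.0853) left out, and the 24 h call in WT was lost without either of the 1 h or 24 h arrays or without replicate 2 of the unstimulated arrays (adjusted p = 0.0511 to 0.185).

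**Figure D2:**
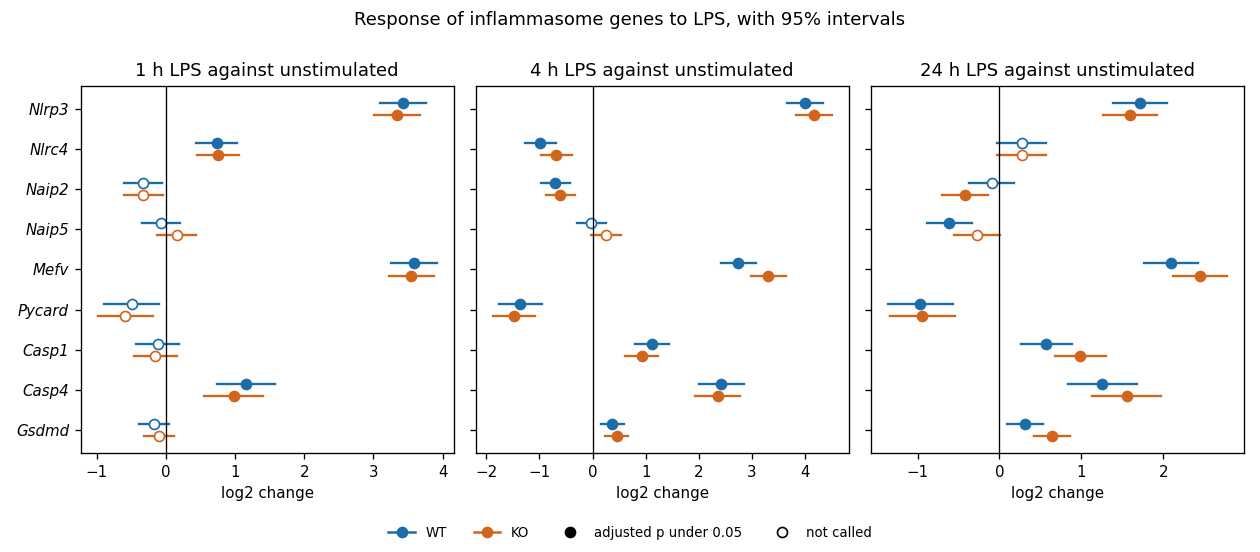
The x axes give the log2 change with LPS against unstimulated at 1, 4 and 24 h, for WT in blue and KO in orange, with bars for 95% confidence intervals. Filled points have an adjusted p under 0.05 (limma, separate channels), and the filled points of Nlrp3, Mefv and Casp4 lie to the right of 0 in all panels, those of Pycard to the left at 4 and 24 h.

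The 24 h channels were also set against the 4 h channels of the same genotype, a comparison chosen after the values were seen. Of the 9 genes, 7 were called in WT and 6 in KO, where 29.7% and 30.7% of all genes and transcripts were called. In WT 2 were higher (15.1% of all) and 5 lower (14.6%), and in KO 2 were higher (15.7%) and 4 lower (15.1%). Nlrp3, Casp4, Mefv and Naip5 came down in both genotypes and Nlrc4 rose in both. Casp1 came down in WT by 0.55 (adjusted p = 0.0101) and had a change of 0.06 in KO (adjusted p = 0.841). Naip2 rose in WT by 0.61 and had a change of 0.18 in KO, and Pycard rose in KO by 0.54 (adjusted p = 0.0416) and had a change of 0.39 in WT. With loess alone the calls for Mefv (-0.29 in WT and -0.51 in KO), Naip5 (-0.22 and -0.21), Casp1 in WT (-0.19) and Casp4 in KO (-0.45) were lost, and Pycard in WT (0.84), Gsdmd in KO (0.54) and Naip2 in KO (0.60) were called as higher. Leaving out 1 array ended the calls of Pycard in KO (adjusted p = 0.255 without replicate 1 at 4 h), Casp1 in WT (0.149 without replicate 1 at 24 h), Casp4 in KO (0.0809 without replicate 1 at 24 h), Mefv in WT (0.0660 without replicate 1 at 24 h) and Naip5 in WT (0.0516 without replicate 1 at 4 h). The replicate term added Pycard in WT (adjusted p = 0.0377), and so did leaving out replicate 2 at 24 h (0.67, adjusted p = 0.0265).

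KO and WT were compared on each array by the log2 KO/WT ratio, fitted with limma at each time point and as the mean over the 4 times. None of the 9 genes was called at 0, 1, 4 or 24 h, where 0%, 0%, 0.00812% and 0.0244% of all genes and transcripts were called. At 24 h these were 0.0135% higher and 0.0108% lower. With a term for the replicate, 393, 213, 210 and 216 of all 36947 were called at the 4 times, and again none of the 9. In the mean over the times 0.563% of all were called, 0.241% higher and 0.322% lower, and none of the 9 was among them, while the fit with the replicate term called Naip2. At an unadjusted p under 0.05, limma had 2 of 9 at 0 h (Mefv and Naip5), 1 at 1 h (Mefv), 0 at 4 h, 2 at 24 h (Casp1 and Naip2) and 3 for the mean (Naip2, Nlrc4 and Casp1). Over all 36947 genes and transcripts these counts were 2126, 2017, 1592 and 1263 at the 4 times and 3935 for the mean. The methods' t-test on the log2 intensities of a time point gave 0, 3 (Mefv, Gsdmd and Nlrc4), 0 and 0 of the set, beside 1707, 1756, 1134 and 1515 of all, and 0 after adjustment at each time. The 95% intervals of the mean over the times ran from -0.34 to 0.39 over all 9 genes.

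**Figure D3:**
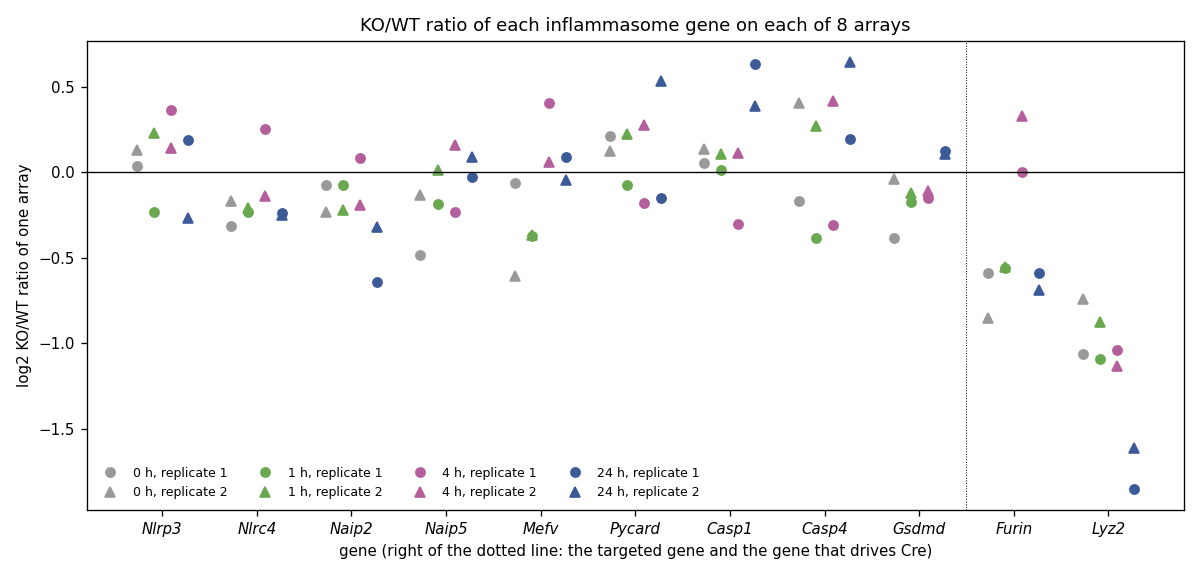
The y axis gives the log2 KO/WT ratio of a gene on 1 array, and the x axis the 9 genes, then Furin and Lyz2. Colours mark the time with LPS, circles replicate 1 and triangles replicate 2, and the ratios of the 9 genes lie between -0.64 and 0.65 while Lyz2 lies between -1.85 and -0.74.

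Naip2 had the largest mean difference between the genotypes. Its ratios in replicates 1 and 2 were -0.08 and -0.23 at 0 h, -0.07 and -0.22 at 1 h, 0.08 and -0.19 at 4 h, then -0.64 and -0.32 at 24 h. It was lower in KO on 7 of 8 arrays, with the exception of replicate 1 at 4 h. The mean was -0.21 (standard error 0.06, adjusted p = 0.191), and in the fit with a term for the replicate, which takes out the dye orientation, it was called (adjusted p = 0.0450). That fit called 6.01% of all genes and transcripts, 2.79% as higher and 3.22% as lower, and no other gene of the set. At 24 h the ratio was -0.48 (0.12), with an unadjusted p of 0.00276 and an adjusted p of 0.511.

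Nlrc4, the partner of Naip2 in the sensor complex, was also lower in KO on 7 of 8 arrays. Its ratios were -0.32 and -0.17 at 0 h, -0.23 and -0.21 at 1 h, 0.25 and -0.14 at 4 h, then -0.24 and -0.25 at 24 h. The single array above 0 was replicate 1 at 4 h, as for Naip2. The mean was -0.16 (0.05, unadjusted p = 0.0166, adjusted p = 0.294). Naip5 had ratios of -0.49 and -0.13 at 0 h and between -0.23 and 0.16 later, with a mean of -0.10 (adjusted p = 0.690).

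Casp1 was higher in KO on 7 of 8 arrays. Its ratios were 0.06 and 0.14 at 0 h, 0.01 and 0.11 at 1 h, -0.30 and 0.11 at 4 h, then 0.63 and 0.39 at 24 h. Both KO channels lay above both WT channels at 0, 1 and 24 h. This was not particular to Casp1. KO and WT channels were also apart for Gsdmd at all 4 times, for Mefv at 0, 1 and 4 h and for Naip2 at 0, 1 and 24 h, among others. The share over all genes was not counted. The 24 h ratio of Casp1, 0.51 (0.12), was 1.42-fold, with an unadjusted p of 0.00218, an adjusted p of 0.465 and 0.0798 with the replicate term. The mean over the times was 0.14 (0.06, adjusted p = 0.433).

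Casp4 ratios differed between the replicates. The ratio in replicate 1 was below that in replicate 2 at all 4 times, with -0.16 and 0.41 at 0 h, -0.38 and 0.27 at 1 h, -0.31 and 0.42 at 4 h, then 0.20 and 0.65 at 24 h. The mean was 0.14 (0.11, adjusted p = 0.805, and 0.104 with the replicate term). Naip5 also had a lower ratio in replicate 1 than in replicate 2 at all 4 times. Dye orientation and macrophage preparation cannot be told apart here.

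Nlrp3 was higher in KO on 6 arrays and lower on 2, between -0.27 and 0.36, and its mean was 0.07 (0.07, adjusted p = 0.857). Mefv ratios were -0.06 and -0.60 at 0 h, -0.37 and -0.36 at 1 h, 0.41 and 0.06 at 4 h, then 0.09 and -0.04 at 24 h. Mefv was thus below 0 on the 4 arrays of 0 and 1 h, above 0 on both 4 h arrays and of both signs at 24 h. The RNA labelled KO did not show less Furin at 4 h but did at 24 h, and a link between Mefv and Furin was not tested. The mean Mefv ratio was -0.11 (0.07, adjusted p = 0.680). Pycard ranged from -0.18 to 0.53 with a mean of 0.12 (0.09, adjusted p = 0.742).

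Gsdmd was printed in 10 spots on each array, so that its ratio has a spread between spots. The ratios were -0.38 and -0.04 at 0 h, -0.18 and -0.12 at 1 h, -0.15 and -0.11 at 4 h, then 0.13 and 0.11 at 24 h. The standard deviation over the spots of an array was between 0.033 and 0.066, with 1 spot left out as an outlier at 24 h. Gsdmd was lower in KO on all 6 arrays up to 4 h and higher on both at 24 h, with a mean of -0.09 (0.05, adjusted p = 0.618).

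The difference between the genotypes in the response was tested as the change of the KO/WT ratio between times. None of the 9 genes was called for 1, 4 or 24 h against 0 h, where 0% of all genes and transcripts were called each time. At an unadjusted p under 0.05 there were 0 genes of the set at 1 h, 1 at 4 h (Mefv) and 1 at 24 h (Casp1, 0.41), beside 517, 1073 and 1230 of all 36947. The fit with the replicate term called none of the 9 either, beside 0, 13 and 78 of all 36947 at 1, 4 and 24 h. The largest of these differences was that of Mefv at 4 h, 0.57 (95% interval 0.12 to 1.01, unadjusted p = 0.0192, adjusted p = 1.00), in which the response of the RNA labelled KO was the higher. The other pairs of times, added after the values were seen, called no gene of the set either, and the largest there was Casp1 at 24 h against 4 h (0.60, unadjusted p = 0.00606, adjusted p = 1.00).

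The other genes of the pathway gave the setting of these changes. Of 47 listed genes, 46 were measured. In WT 8 rose and 5 fell at 1 h, 23 rose and 15 fell at 4 h, and 21 rose and 17 fell at 24 h, and in KO the counts were 6 and 6, 22 and 15, and 21 and 12. The shares of all genes called in the same comparisons in WT were 3.36% higher and 5.16% lower for 1 h, 15.5% and 19.2% for 4 h, then 13.5% and 16.9% for 24 h, and in KO 3.08% and 4.45%, 16.3% and 19.7%, and 12.8% and 15.9%. The lists were made with earlier results of these data known. All 5 cytokine genes of the IL-1 group (Il1b, Il18, Il1a and the inhibitors Il1rn and Il18bp) rose at 4 h and at 24 h in both genotypes. Of the 9 other sensors measured, 2 rose and 4 fell at 4 h in WT, and 1 rose and 6 fell at 24 h. In KO 1 rose and 3 fell at 4 h, and 1 rose and 4 fell at 24 h. Among these sensors Nlrp12 was above background in 0 of 16 channels, Nlrp10 in 4, Nlrp1b in 8 and Naip1 in 15, and Nlrp10 and Nlrp1b are counted among those that fell, Nlrp10 in WT at both times and in KO at 4 h, and Nlrp1b in both genotypes at both times. Of 20 genes that license or restrain the inflammasome, 11 rose and 6 fell at 4 h in WT and 11 rose and 7 fell in KO. Of 12 other genes of cell death, 5 rose and 5 fell at 4 h in each genotype.

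Il1b, the main substrate of caspase-1, had unstimulated levels between 9.70 and 10.20 in WT and between 10.92 and 11.66 in KO. At 1 h it read 16.90 to 17.40 in WT and 17.03 to 17.26 in KO, and it stayed above 16.6 thereafter. The rise at 1 h was 147-fold in WT and 57.8-fold in KO, with the groups apart at 0 h and overlapping at 1 h. The KO/WT ratio at 0 h was 1.34 (standard error 0.22, adjusted p = 0.163, and 0.0135 with the replicate term). The 24 h response of Il1b was different by -1.79 in KO against WT (adjusted p = 0.399, and 0.0396 with the replicate term). Il1a, whose precursor is active without caspase-1, rose 239-fold in WT and 168-fold in KO at 4 h. Il18, the second substrate, was not called at 1 h (0.43 in WT, adjusted p = 0.203, and 0.0152 with the replicate term, and -0.02 in KO, adjusted p = 0.983 and 0.952) and rose 6.72-fold in WT and 7.19-fold in KO at 4 h. Aim2, the sensor of cytosolic DNA, was not called at 4 h (0.15 in WT and 0.22 in KO) and was lower at 24 h, by 0.65 in WT and by 0.49 in KO.

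Genes that license or restrain the inflammasome moved in both directions. Txnip, a binding partner of NLRP3 and thioredoxin, fell by 2.44 in WT and by 2.11 in KO at 1 h. P2rx7, the ATP-gated channel that triggers NLRP3, fell by 1.09 and by 1.27 at 1 h, and at 24 h it had changed by -3.26 and -2.93. Serpinb1a, an inhibitor of granule proteases and inflammatory caspases, changed by -1.80 in WT and by -2.81 in KO at 24 h, and the difference of -1.01 had an adjusted p of 1.00, and of 0.0391 with the replicate term. Naip1, a further NAIP sensor whose 4 h levels of 6.64 to 6.94 were its lowest and whose probe was above background in 15 of 16 channels, fell by 3.38 in WT and by 3.06 in KO at 4 h, and Casp9, the initiator caspase of the apoptosome, fell by 3.36 in WT and by 3.50 in KO.

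From 4 to 24 h Casp9 rose again, by 2.39 on the log2 scale in WT and by 2.73 in KO. Gsdme, on the list of cell death genes, rose by 2.45 in WT and by 2.21 in KO. Its 4 h levels were 6.40 to 6.53 in WT and 6.33 to 6.73 in KO, and its probe was above background in 12 of 16 channels. Gbp5, a GTPase that acts on the way to caspase-11 and NLRP3, came down by 3.13 in WT and by 2.26 in KO, and Irf1, a transcription factor of the interferon response, changed by -2.74 in WT and by -1.51 in KO. The difference between the genotypes for Irf1 was 1.24 (adjusted p = 0.244, and 0.0190 with the replicate term). The split of all called genes in this comparison depended on the scaling, with 50.9% of the WT calls higher at 24 h in the normalization used and 79.8% with loess alone. For 4 h against unstimulated in WT, 44.6% of calls were higher, and 27.8% with loess alone, and in KO the shares were 45.2% and 27.9%. For 24 h the share turned from 44.5% to 53.1% in WT and from 44.6% to 54.2% in KO.

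**Figure D4:**
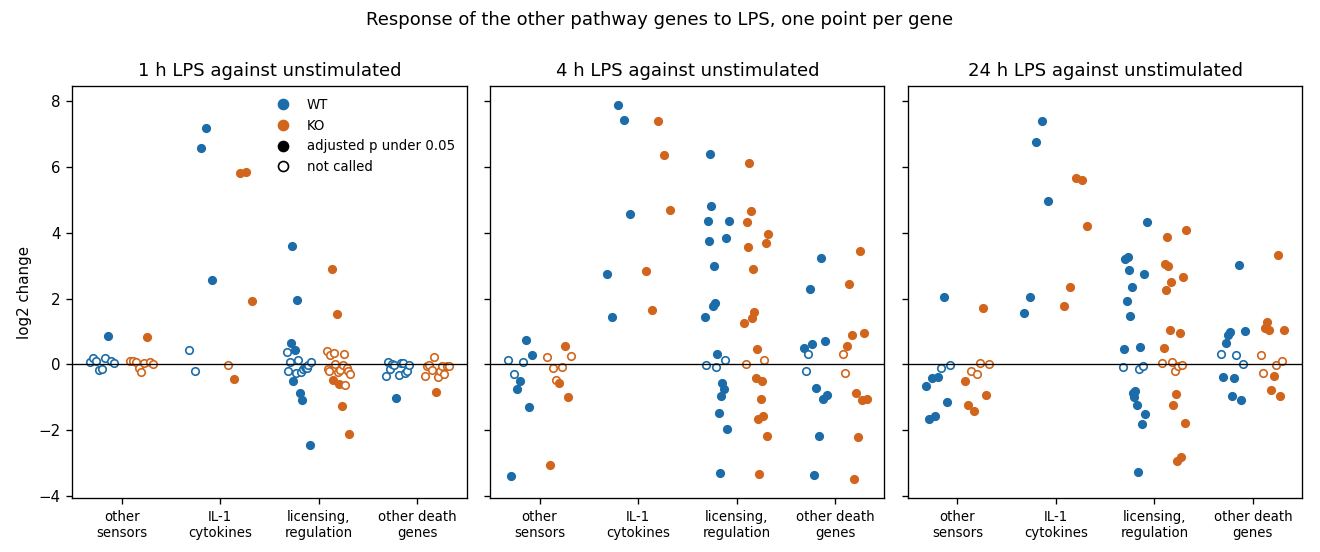
Each point is 1 of the 46 measured pathway genes, grouped by list along the x axis, and the y axis gives its log2 change with LPS against unstimulated at 1, 4 and 24 h. Blue is WT, orange KO, and filled points have an adjusted p under 0.05. The points of Il1a and Il1b lie highest at 4 h, at 7.90 and 7.44 in WT.

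In the mean KO/WT ratio, 3 of these 46 genes were called, all higher in KO, against 0.563% of all genes and transcripts. Nlrp1a, a sensor with a role in macrophage death, was higher by 0.40 (standard error 0.04, adjusted p = 0.0183), and Irf2, a transcription factor that drives Gsdmd, by 0.29 (0.05, adjusted p = 0.0470). Serpinb1a, named after its values were seen, was higher by 0.68 (0.10, adjusted p = 0.0373). Beside these, the mean KO/WT ratios of the 5 mast cell markers were between 0.05 and 0.60 and those of the 6 B cell markers between 0.098 and 0.23. Those of the 7 T and NK cell markers ran from -0.06 to 0.60 (Cd3d), those of the 7 macrophage markers from -0.41 (Csf1r) to 0.34 (Icam2) and those of the 7 neutrophil markers from -0.25 to 0.0047, and their part in the KO/WT results was not tested.

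The genes whose profile over the 16 channels came closest to each member with a range of group means above 1 on the log2 scale were found by Pearson's r among 20835 named genes. For Nlrp3 they were Marcksl1 (0.995), Nfkbib (0.994) and Pde4b (0.992). For Mefv they were the probe assigned to Mki67 (0.990), Vps37c (0.975) and Nfkbia (0.972). Nfkbib and Nfkbia encode inhibitors of NF-kB. For Casp4 they were Gbp5 (0.984), Ifi204 (0.982) and Ifih1 (0.978), all known as interferon-induced genes. Casp1 came closest to Psme2 (0.973), Psmb10 (0.967) and Chac2 (0.960), of which the first and second are parts of the immunoproteasome and its activator. For Pycard they were Ccdc12 (0.975), Dynll2 (0.968) and Ndufa7 (0.963), and for Nlrc4 they were Nt5c2 (0.944), Ero1b (0.939) and Leng9 (0.937). The 16 channels come from 8 arrays and 4 time points, and a likeness of profiles is a description of these channels.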

How the data were processed

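Raw median intensities of each spot in Cy3 and Cy5 were deposited by the authors, who extracted them with Agilent Feature Extraction 10.7.3. The authors also deposited log2 ratios of Cy5 to Cy3, normalized with loess and quantile steps in limma, which served here only as an alternative. Per the labels' growth protocol every stimulated sample had 4 h of LPS, and times were taken from the sample titles. Intensities were corrected with normexp (offset 50), normalized by loess within and quantile between arrays, and outlier spots were left out. Fits used limma 3.58.1 in R 4.3.3: ratios with a mean per time point, and separate channels with a within-spot correlation of 0.107. A fold on this scale understates the change of dim genes. Deviations of same-numbered arrays correlated between times with r of 0.475 to 0.679 over 6 pairs, so a fit with the replicate as a term was run too. Members and lists were chosen with earlier results of these data known. Genes outside the set were named by a fixed rule: Furin, Lyz2, Il1b, Il18, Il1a and Aim2, and for each comparison up to 2 pathway genes with the largest called rise and 2 with the largest fall among those with 1 direction in every array of the comparison, which Serpinb1a did not have in the mean ratio. The fits were tested on simulated data, in which the noise of each channel was independent, unlike that of same-numbered arrays here. There the KO/WT fit at 4 h called 10% of log2 changes of 0.5 and 76% of changes of 1. The separate-channel fit for WT at 4 h called 20% and 86%. Differences of about 0.5 between KO and WT would thus mostly be missed.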

Additional observations from a re-analysis of the deposited data

How the results depend on the processing

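Of the 38 called LPS responses of the set, none changed sign in 570 refits with another background correction, normalization, floor, probe rule, replicate term or with 1 array left out, and 7 lost their call in at least 1 refit, as given with those genes. The replicate term raised the count of called genes in the mean KO/WT ratio from 0 to 1 (Naip2), while that over all genes went from 208 to 2219, and it added Pycard at 1 h in both genotypes, and it changed no other call of the set against unstimulated. With 1 array left out, the count of called genes in KO at 1 h was between 2 and 4 of 9. It was 2 without unstimulated replicate 1, where 688 genes of all were higher and 757 lower, and without replicate 2 at 1 h, where 797 were higher and 691 lower, against 1139 and 1645 with all arrays. With loess alone, changes that were not called turned sign: Naip2 in WT at 24 h to 0.23, Naip5 in WT at 1 h to 0.027 and at 4 h to 0.060, and Naip5 in KO at 24 h to 0.20. With 1 array left out, Naip2 in WT at 24 h ranged from -0.22 to 0.036 and Naip5 in WT at 4 h from -0.20 to 0.16. With the Feature Extraction processed signals, Naip5 in KO at 24 h was called (-0.32, adjusted p = 0.0342), and the median of all genes in the 24 h response in WT was -0.12, against -0.01. Of 72 KO/WT estimates that were not called, 31 changed sign in at least 1 refit, and the only one to gain a call was Naip2. Signal over background did not limit the 9 genes, while 2 arrays per time point limit the precision.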
